A study of Mus musculus with 6 samples.

Results

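The receptors for the Fc part of immunoglobulin G were followed through 5 genes, Fcgr1, Fcgr2b, Fcgr3, Fcgr4 and Fcer1g, looked up by symbol in a deposited table of 13912 genes, where all 5 of the 5 genes listed were found. RNA had been sequenced in 6 libraries of 4T1-Luc2-RFP, a single BALB/c mammary carcinoma line marked with luciferase and a red fluorescent protein. In 3 libraries, called tumour here, the cells came by fluorescence-activated sorting from MIND tumours, which grow in the mammary gland after cells are placed in the milk duct, and 3 libraries, called cultured, came from the same line kept in culture and never injected. Hosts and line shared the BALB/c strain label, no drug or other agent was named for either group, and the age of the hosts, the sorting gate and whether tumours had been pooled are not given in the sources used here. The labels do not tie the libraries to separate animals or cultures, so a p-value here measures only how far these libraries scatter, and that scatter may be technical.

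Fc receptors join antibodies to the cells that act on them. In mice the activating receptors encoded by Fcgr1, Fcgr3 and Fcgr4 bind IgG outside the cell but signal through a partner, the common gamma chain encoded by Fcer1g, whose immunoreceptor tyrosine-based activation motif (ITAM) is phosphorylated by Src-family kinases and then binds the kinase Syk. Fcgr2b encodes the inhibitory receptor, a single chain with an immunoreceptor tyrosine-based inhibition motif (ITIM) that recruits the inositol phosphatase made from Inpp5d. Macrophages and monocytes carry all of them, neutrophils carry several, natural killer cells use Fcgr3 and B cells use Fcgr2b, so in a tumour these genes are commonly read as genes of its myeloid cells.

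The libraries held 35448588 to 41469090 reads each. The deposited values were log2 CPM, that is, reads scaled by library size on a log2 scale, from which whole reads could be recovered. The labelled cell type was checked against its markers: of 12 epithelial and 4T1 carcinoma genes 11 were measured, and their summed level was 2848 to 3339 CPM in tumour libraries and 2834 to 3719 CPM in cultured libraries. Of these 11 genes, 1 was higher and 4 were lower in tumour libraries, and 6 did not pass the test (limma, adjusted p under 0.05). The tumour libraries, although labelled as sorted carcinoma cells, also held transcripts of host cell types. The 16 macrophage and monocyte markers summed to 7728 to 11329 CPM in tumour libraries and 28.4 to 39.0 CPM in cultured libraries, and the 10 fibroblast markers to 6299 to 8131 CPM in tumour libraries and 23.6 to 51.6 CPM in cultured libraries. Their part in the results on Fc receptors was not tested. In bulk libraries fewer cells of a type and less RNA per cell cannot be told apart.

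All 5 Fc receptor genes were higher in tumour libraries, by 9.998 to 12.76 on the log2 scale, with every tumour library above every cultured one. Among all 13912 genes, 29.5% were called higher in tumour libraries and 34.6% had non-overlapping groups in that direction. The table had no gene with fewer than 61 reads over the 6 libraries, and the 5 genes had 3 to 18 reads in all cultured libraries together, so they had entered the table through their tumour reads and their direction was fixed by that. Among the 1487 genes with a cultured mean no higher than that of the highest of the 5 genes, 99.9% were called higher. The sizes and the differences among tumour libraries are therefore what the values below describe.

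Fcgr1, the high-affinity IgG receptor, had 3839, 3191 and 3592 reads in tumour libraries 1, 2 and 3, against 2, 2 and 0 reads in cultured libraries 1, 2 and 3. On the log2 CPM scale these were 6.70, 6.30 and 6.57 in tumour libraries and -4.09, -4.18 and -6.12 in cultured libraries. The 3 tumour libraries lay close together, and cultured library 3 had no read at all. The mean was 92.5 ± 12.9 CPM in tumour libraries and 0.0304 ± 0.0263 CPM in cultured libraries (SD, n = 3 each), and the log2 change was 11.32 (SE 0.56, limma adjusted p = 2.78e-06). Over the pooled reads of each group the ratio of CPM was 2824, with an exact 95% interval of 1103 to 10366 that covers counting error only, as do all such intervals here.

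Fcgr3, the low-affinity activating receptor that binds immune complexes, had 13617, 9212 and 12140 reads in tumour libraries 1, 2 and 3, against 6, 3 and 4 reads in cultured libraries 1, 2 and 3. The log2 CPM values were 8.53, 7.82 and 8.32 in tumour libraries and -2.71, -3.69 and -2.95 in cultured libraries. Tumour library 2 was the low one, and the groups did not overlap. Fcgr3 averaged 305 ± 72.4 CPM in tumour libraries and 0.107 ± 0.0378 CPM in cultured libraries (SD, n = 3 each). The log2 change was 11.35 (SE 0.34, limma adjusted p = 6.42e-07), and the pooled ratio was 2860 (1672.5 to 5373).

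Fcgr4, an activating receptor of intermediate affinity, had 5488, 3579 and 4739 reads in tumour libraries 1, 2 and 3, against 5, 12 and 1 reads in cultured libraries 1, 2 and 3. Its log2 CPM values were 7.22, 6.46 and 6.97 in tumour libraries and -2.95, -1.86 and -4.54 in cultured libraries. Cultured library 2 held most of its cultured reads, and tumour library 2 was again the low tumour library. The mean was 121 ± 30.6 CPM in tumour libraries and 0.137 ± 0.119 CPM in cultured libraries (SD, n = 3 each), and the log2 change was 9.998 (SE 0.63, limma adjusted p = 8.48e-06). Its pooled ratio of 816 (516 to 1377) was the lowest of the 5 genes. By counting error alone its interval overlapped that of Fcgr1 but not those of Fcgr3, Fcer1g and Fcgr2b. The limma interval of its log2 change, which includes the scatter between libraries, was 8.52 to 11.47. This overlapped the limma intervals of Fcgr1 (10.02 to 12.62), Fcgr3 (10.55 to 12.14), Fcer1g (11.12 to 14.39) and Fcgr2b (11.40 to 12.50). Overlap of intervals is not a test of a difference, and Fcgr4 was not tested against the other genes.

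Fcer1g, the signalling chain shared by the activating receptors and by the IgE receptor, had 7658, 4917 and 6497 reads in tumour libraries 1, 2 and 3, against 0, 3 and 0 reads in cultured libraries 1, 2 and 3. On the log2 CPM scale it stood at 7.70, 6.92 and 7.42 in tumour libraries and -6.41, -3.69 and -6.12 in cultured libraries. All of its cultured reads came from library 2. Its mean was 167 ± 43.5 CPM in tumour libraries and 0.0221 ± 0.0383 CPM in cultured libraries (SD, n = 3 each), 12.76 higher on the log2 scale (SE 0.70, limma adjusted p = 4.28e-06) and a pooled ratio of 6760 (2313 to 32784). By size of the log2 change it ranked 14 among all tested genes, a place that depends on the 0.5 reads added to each count where a library has none.

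Fcgr2b, the inhibitory receptor, had 23735, 19024 and 26965 reads in tumour libraries 1, 2 and 3, against 6, 6 and 5 reads in cultured libraries 1, 2 and 3. Its log2 CPM values were 9.33, 8.87 and 9.47 in tumour libraries and -2.71, -2.80 and -2.66 in cultured libraries. It was the gene whose highest tumour library was library 3 and not library 1. Fcgr2b averaged 608 ± 125 CPM in tumour libraries and 0.139 ± 0.00574 CPM in cultured libraries (SD, n = 3 each). The log2 change was 11.95 (SE 0.23, limma adjusted p = 1.75e-07) and the pooled ratio 4361 (2724 to 7487).

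**Figure D1:**
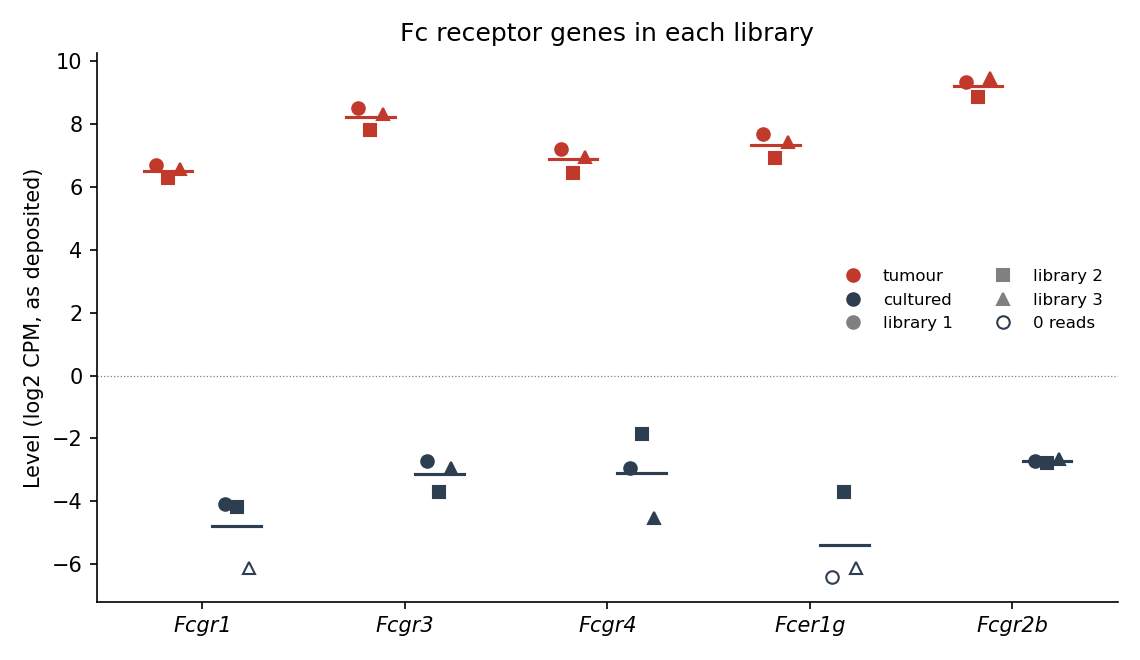
The level of each Fc receptor gene in each library, in log2 CPM as deposited, with tumour libraries in red to the left of cultured libraries in blue. Marker shapes give the library number, open markers are libraries with 0 reads, and each horizontal line is a group mean. All tumour values lie between 6.30 and 9.47, and all cultured values between -6.41 and -1.86.

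Added up, the 5 genes took 1474, 982 and 1423 CPM in tumour libraries 1, 2 and 3, which was 0.136%, 0.0963% and 0.134% of all reads. In cultured libraries 1, 2 and 3 they took 0.446, 0.574 and 0.287 CPM, from 19, 26 and 10 reads. All 5 genes kept their call in 14 alternative settings each, with adjusted p of at most 0.000125. Since entry through tumour reads had fixed their direction, these settings bear on the sizes only. On a log2(CPM + 1) scale, which understates the change of genes near 0, the changes were 6.49 for Fcgr1, 8.08 for Fcgr3, 6.71 for Fcgr4, 7.32 for Fcer1g and 9.04 for Fcgr2b.

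To compare levels between the genes, CPM was divided by the length of exon annotated for each gene (union of exons, GENCODE M21). Per kilobase of exon the tumour mean was 191 ± 49.8 CPM for Fcer1g, 176 ± 41.7 CPM for Fcgr3, 105 ± 21.7 CPM for Fcgr2b, 96.0 ± 24.4 CPM for Fcgr4 and 35.7 ± 5.0 CPM for Fcgr1 (SD, n = 3). Fcer1g and Fcgr3 differed by less than their spread, although Fcer1g was the higher of the pair within each of the 3 tumour libraries. With this length Fcgr2b and Fcgr4 overlapped and changed places between libraries, with 111, 80.9 and 123 CPM per kilobase for Fcgr2b and 119, 70.1 and 99.5 CPM per kilobase for Fcgr4 in tumour libraries 1, 2 and 3. With the length of the longest transcript Fcgr2b was above Fcgr4 in each of the 3, at 182, 132 and 201 CPM per kilobase for Fcgr2b. Fcgr1 was below the other genes in every tumour library with either length. Fcgr2b, which has the most reads, stood behind Fcer1g and Fcgr3 per length, since its annotated exons cover 5790 bases against 1736 bases for Fcgr3 and 874 bases for Fcer1g.

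The make-up of the group moved less than its total, but the share of Fcgr2b was 15.4%, 18.0% and 19.2% in tumour libraries 1, 2 and 3. Fcer1g made up 31.5 ± 1.32%, Fcgr3 29.1 ± 0.363%, Fcgr2b 17.5 ± 1.92%, Fcgr4 15.9 ± 0.511% and Fcgr1 6.01 ± 0.629% of the summed level per kilobase in tumour libraries (SD, n = 3). The gamma chain stood at 0.640, 0.599 and 0.612 of the summed level per kilobase of the 3 activating receptors in tumour libraries 1, 2 and 3. The ratio of the inhibitory Fcgr2b to the sum of the activating Fcgr1, Fcgr3 and Fcgr4 was 0.299, 0.350 and 0.383 in tumour libraries 1, 2 and 3, or 0.344 ± 0.0422 (SD, n = 3). With the length of the longest transcript in place of the union of exons the order of the 5 means was the same and the ratio was 0.483 ± 0.0591. In CPM with no division by length, chosen as an alternative after seeing the data, Fcgr2b stood at 644, 468 and 711 CPM and the 3 activating genes together at 622, 393 and 540 CPM in tumour libraries 1, 2 and 3, so the ratio turned to 1.03, 1.19 and 1.32. Which side is the larger thus depends on the length assigned to Fcgr2b, and which of its transcripts were made is not shown by a table per gene. No such make-up was computed for cultured libraries, where each gene had at most 12 reads in a library.

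**Figure D2:**
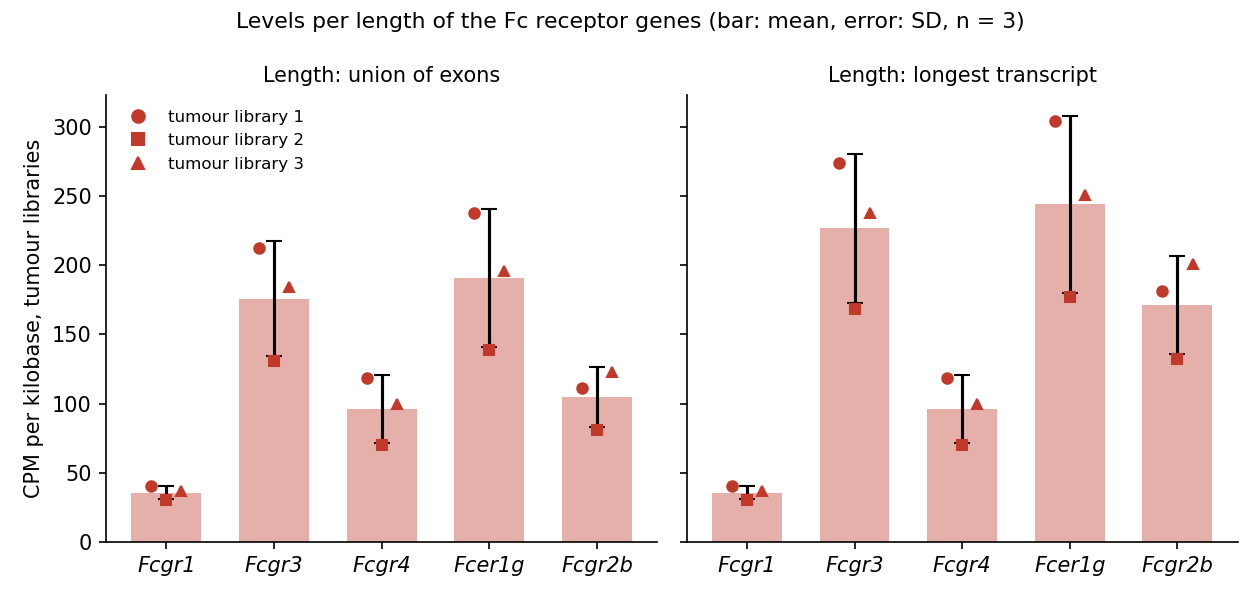
Levels of the 5 Fc receptor genes in the 3 tumour libraries, in CPM per kilobase, with the length taken as the union of exons on the left and as the longest transcript on the right. Bars are means, error bars are SD (n = 3) and markers are libraries. Fcer1g and Fcgr3 stand above the other genes on average in both panels, and the mean of Fcgr2b moves from 105 to 171 CPM per kilobase with the definition of length.

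Fcgr2b and Fcgr3 are close relatives, and the part of the message that encodes their extracellular domains is nearly the same. Reads from such a stretch can belong to either gene. Of all windows of 50 bases in the annotated transcripts, Fcgr2b and Fcgr3 shared 166, which was 2.92% of the windows of Fcgr2b and 9.58% of those of Fcgr3, and no other pair of the 5 genes shared any. All of these windows lay in coding sequence, where they made up 15.6% of the windows of Fcgr2b and 20.8% of those of Fcgr3. The longest identical run in the coding sequences, shown since a read inside it cannot be assigned, had 129 bases:
Fcgr2b and Fcgr3, shared coding run: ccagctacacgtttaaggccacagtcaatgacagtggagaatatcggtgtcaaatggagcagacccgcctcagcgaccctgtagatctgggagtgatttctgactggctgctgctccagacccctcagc
How reads in such runs were counted is not given in the sources used here, so the split of reads between Fcgr2b and Fcgr3 is uncertain to that extent. Another 155 exon bases of Fcgr2b lie opposite the antisense gene Gm38204, and whether counting used the strand is not given either.

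On the build GRCm38 (mm10, the C57BL/6J genome) Fcgr1 lies on chromosome 3 at 96282909 to 96293969 on the minus strand. The other 4 genes lie on chromosome 1 within 275749 bases: Fcgr2b at 170958617 to 170976547 (minus strand), Fcgr4 at 171018920 to 171029761 (plus strand), Fcgr3 at 171051174 to 171064935 (minus strand) and Fcer1g at 171229572 to 171234365 (minus strand). From Fcrlb to Fcer1g, both included, the annotation has 13 protein-coding genes, of which 8 were tested. Fcrlb, an Fc receptor-like gene at the edge of the cluster, was also higher in tumour libraries, by 9.17 (SE 0.73, limma adjusted p = 2.89e-05). The other 3 tested genes of the interval did not pass the limma test. Sdhc, a subunit of succinate dehydrogenase, differed by 0.43 on the log2 scale (SE 0.20, adjusted p = 0.121), and passed without cultured library 3 (0.64, adjusted p = 0.00491). Tomm40l, a mitochondrial import gene, differed by -0.22 (SE 0.23, adjusted p = 0.452). Cfap126, a cilium gene, differed by 1.40 (SE 0.57, adjusted p = 0.0766), which passed the test without cultured library 2 (2.004, adjusted p = 0.00691) and turned to -2.02 under quantile normalization (adjusted p = 0.00263).

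**Figure D3:**
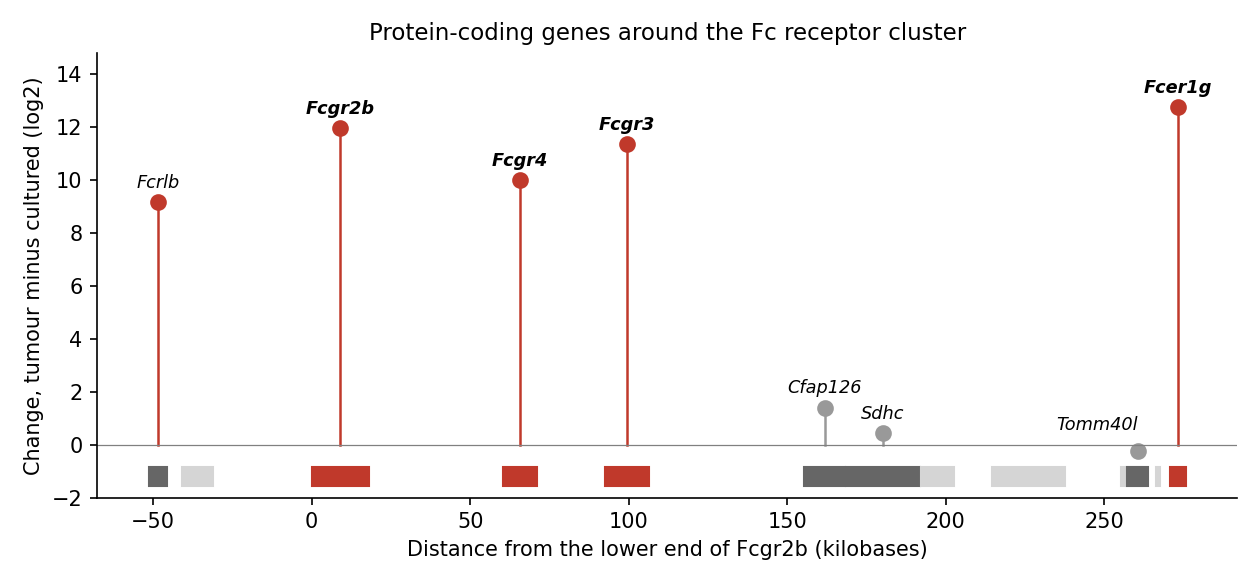
Protein-coding genes from Fcrlb to Fcer1g in kilobases from the lower end of Fcgr2b, with the log2 change of tumour minus cultured libraries above each tested gene. Red stems passed the limma test and grey stems did not. Boxes at the bottom are gene bodies, red for the Fc receptor genes, dark grey for other tested genes and light grey for genes not tested. The 4 Fc receptor genes and Fcrlb stand between 9.17 and 12.76, and the other tested genes between -0.22 and 1.40.

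Since the 5 genes moved together, the sequence before their start sites was read from RefSeq (GRCm38.p6), 250 bases for each start. The windows were searched on both strands for the core GAGGAA of sites for the myeloid transcription factor PU.1, made from Spi1, for the interferon-gamma activated site TTCNNNGAA, for the interferon regulatory factor motif, read as 2 copies of GAAA parted by 2 bases, and for TATAAA. None of these motifs overlapped another in the 5 genes' windows. The PU.1 core was found before Fcgr1, Fcgr3 and Fcgr4, and those windows are shown 5′ to 3′ on the strand of the gene, with the core in capitals:
Fcgr1, chr3:96293970-96294219, minus strand: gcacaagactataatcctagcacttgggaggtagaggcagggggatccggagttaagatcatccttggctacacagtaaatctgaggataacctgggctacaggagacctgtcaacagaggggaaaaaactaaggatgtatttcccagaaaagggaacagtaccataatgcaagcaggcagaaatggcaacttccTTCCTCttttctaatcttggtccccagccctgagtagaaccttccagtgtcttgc
Fcgr3, chr1:171059404-171059653, minus strand: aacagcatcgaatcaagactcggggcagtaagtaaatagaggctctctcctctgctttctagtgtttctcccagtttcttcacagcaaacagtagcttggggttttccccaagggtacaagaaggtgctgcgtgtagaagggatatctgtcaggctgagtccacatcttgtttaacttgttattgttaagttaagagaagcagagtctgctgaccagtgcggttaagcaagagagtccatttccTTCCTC
Fcgr4, chr1:171018676-171018925, plus strand: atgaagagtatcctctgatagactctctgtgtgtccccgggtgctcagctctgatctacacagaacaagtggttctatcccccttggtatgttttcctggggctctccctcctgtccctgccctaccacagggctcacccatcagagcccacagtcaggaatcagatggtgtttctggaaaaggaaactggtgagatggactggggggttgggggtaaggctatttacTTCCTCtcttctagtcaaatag
Counting back from the first transcribed base, the core lay at -55 to -50 in Fcgr1, -6 to -1 from the first of 2 RefSeq starts of Fcgr3 (-15 to -10 from the second) and -22 to -17 in Fcgr4, in each case as TTCCTC on the strand of the gene. Fcgr1 also held TTCCCAGAA at -109 to -101, a match to the interferon-gamma activated site, and Fcgr4 held GAAAAGGAAA at -73 to -64, a match to the interferon regulatory factor motif. The windows of Fcgr2b and Fcer1g held none of the motifs, and TATAAA was in none of the windows. Of 32851 mouse promoter windows in the same table, 23.3% held the PU.1 core, 7.02% the interferon-gamma activated site, 2.98% the interferon regulatory factor motif and 12.4% TATAAA. A match describes letters only, and a window without one says nothing of the factor.

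Among the tumour libraries all 5 genes were lowest in library 2, as were 39.2% of all genes. Its log2 level lay below the mean of libraries 1 and 3 by 0.34 for Fcgr1, 0.53 for Fcgr2b, 0.60 for Fcgr3, 0.63 for Fcgr4 and 0.64 for Fcer1g. The median of all genes differed by 0.0092. The macrophage and monocyte markers, among them Lyz2, which encodes lysozyme, and Ctss, which encodes cathepsin S, had a median of -0.41 in the same comparison, and all 16 were lower in library 2, as were 48.8% of all genes. The neutrophil markers moved further, with a median of -2.43 and 8 of 9 lower. S100a9, a calcium-binding protein abundant in neutrophils, had 4596 reads in tumour library 2, against 55038 in library 1 and 24543 in library 3. The median was -0.52 for dendritic cell markers, -0.46 for endothelial markers, -0.35 for fibroblast markers, 0.14 for epithelial markers and 0.31 for mast cell and basophil markers.

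Set against these lists, the Fc receptor genes varied least in proportion to the dendritic cell and macrophage lists. Their sum was 55.2%, 53.2% and 57.5% of the summed CPM of the dendritic cell markers (SD of the log2 ratio 0.0566) and 14.1%, 12.7% and 12.6% of the summed CPM of the macrophage markers (SD of the log2 ratio 0.0931) in tumour libraries 1, 2 and 3. Fcgr2b alone varied less against the macrophage list (SD of the log2 ratio 0.0257) than against the dendritic cell list (0.131), and the other 4 genes varied less against the dendritic cell list. The dendritic cell sum was mostly H2-Aa, H2-Ab1 and Itgax, at means of 1095, 876 and 327 CPM in tumour libraries. The next highest, Ccr7, averaged 13.5 CPM, and Flt3, Xcr1 and Clec9a 0.622, 0.661 and 1.15 CPM. Ratios to this sum thus describe those few genes more than the list. Against the macrophage list Fcgr2b stood at 6.17%, 6.06% and 6.28%. Against the neutrophil list, whose member Mmp9 was also read in cultured libraries, the sum was 37.1%, 73.2% and 68.8% in tumour libraries 1, 2 and 3. Against the endothelial list it was 740%, 518% and 574%, against the fibroblast list 21.8%, 15.6% and 17.5%, and against the epithelial list 51.8%, 29.4% and 42.9%. With 3 libraries these are descriptions with no test, and the part of any cell type in the Fc receptor reads was not tested.

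**Figure D4:**
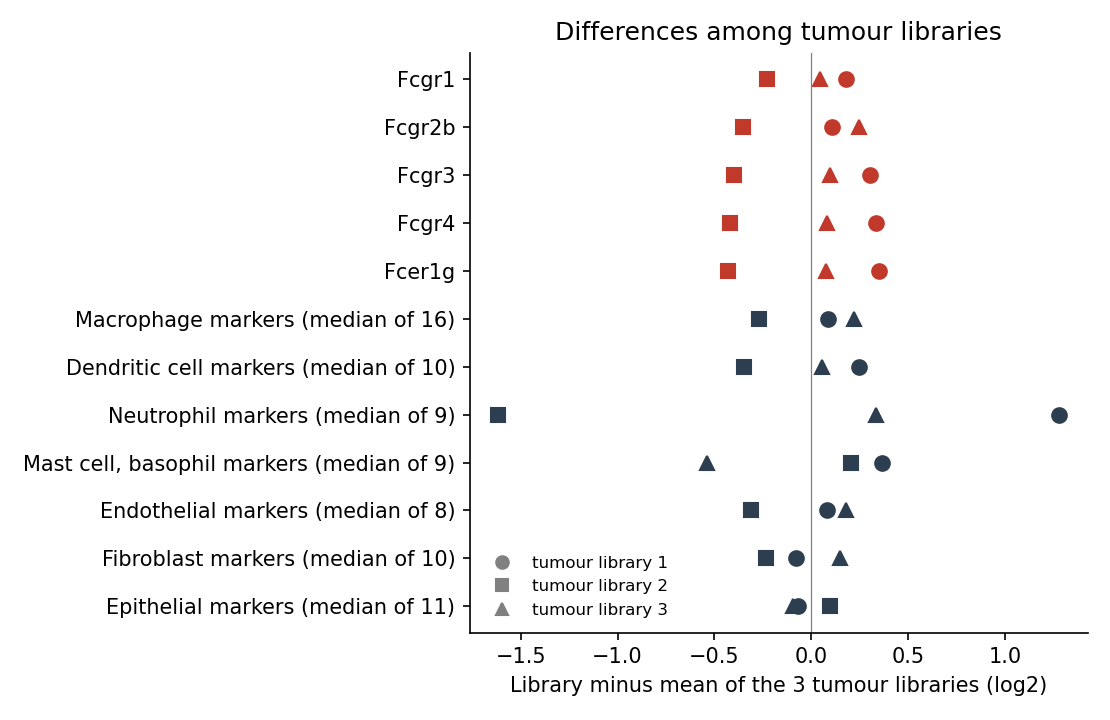
Each tumour library minus the mean of the 3 tumour libraries, in log2, for the 5 Fc receptor genes in red and for the median of each marker list in blue. Marker shapes give the library. Library 2 is the lowest for all 5 receptor genes, for the macrophage, dendritic cell, neutrophil, endothelial and fibroblast lists, but not for the epithelial and mast cell lists.

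Other cell types that carry Fc receptors were measured with the same lists. For the counts that follow, 29.5% of all genes were called higher in tumour libraries. All 16 macrophage markers were higher in tumour libraries, and Ms4a7 was the one with 0 reads in cultured libraries. All 9 measured neutrophil markers of 12 listed were higher, at 1341 to 3968 CPM summed in tumour libraries and 85.5 to 100.5 CPM in cultured libraries, while Ly6g, Elane and Mpo were not analysed here. Of the 10 dendritic cell markers 8 were higher, among them H2-Aa and H2-Ab1, the chains of the class II molecule I-A, and Zbtb46 and Batf3 did not pass the test. Mast cell and basophil markers, 9 of 10 measured, were all higher and summed to 52.8 to 375 CPM in tumour libraries and 0.442 to 2.73 CPM in cultured libraries. The most abundant of them was Hdc, histidine decarboxylase, at 176 ± 159.9 CPM in tumour libraries and 0.143 ± 0.0874 CPM in cultured libraries (SD, n = 3 each). The next highest, Kit, averaged 7.79 CPM in tumour libraries, so the sum describes Hdc more than the list. Between tumour library 2 and the mean of libraries 1 and 3, Hdc differed by -3.13 on the log2 scale. The median was 0.31 for this list and -2.43 for the neutrophil list. Of the B cell list 2 of 9 genes and of the natural killer and T cell list 5 of 14 were measured, and the defining markers Ms4a1, Cd3e and Ncr1 were not analysed here. Cd79b, a chain of the B cell receptor complex, had 30, 36 and 56 reads in tumour libraries 1, 2 and 3 and 1 read in cultured libraries.

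Other receptors for immunoglobulin were read in the same way. Of 13 listed genes 4 were tested, and all 4 were higher in tumour libraries, as were 29.5% of all genes. Their median log2 change was 6.54, against 0.080 over all genes. Fcgrt, the neonatal Fc receptor that recycles IgG inside cells, had 3997, 4605 and 8352 reads in tumour libraries 1, 2 and 3, against 2, 7 and 0 reads in cultured libraries. Tumour library 3 was its high one, unlike any of the 5 genes except Fcgr2b, and its change was 11.39 (SE 0.82, limma adjusted p = 1.66e-05). Trim21, a cytosolic receptor for antibody, was present in both groups, at 18.7 ± 2.52 CPM in tumour libraries and 3.47 ± 0.741 CPM in cultured libraries (SD, n = 3 each), that is 2.44 higher on the log2 scale (SE 0.25, limma adjusted p = 0.000136). Fcrl1, an Fc receptor-like gene of B cells, rested on 75, 12 and 52 reads in tumour libraries 1, 2 and 3, against 0, 4 and 7 reads in cultured libraries, and its change of 3.92 (SE 1.15, limma adjusted p = 0.0243) did not pass without tumour library 1 (adjusted p = 0.0810) or without tumour library 3 (adjusted p = 0.0772). The subunits of the IgE receptor other than Fcer1g, Fcer1a and Ms4a2, and the 12 immunoglobulin genes that encode the ligands were not analysed here.

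Receptors that, like the activating Fc receptors, signal through a small adaptor formed a list of 15 genes with their adaptors. All 12 tested were higher in tumour libraries, with a median change of 11.32, or 10.85 with genes of 0 cultured reads set at a bound of 3 reads over the group. All 12 were under 1 CPM in cultured libraries. The entry of genes by their tumour reads holds for them too, except for Clec4d. That gene had 78 reads in cultured libraries together, so its direction was not fixed by entry. Over all genes 29.5% were called higher. Clec4n, which encodes the fungal receptor dectin-2 that pairs with the Fcer1g product, had 9322, 7088 and 7496 reads in tumour libraries 1, 2 and 3, against 2, 1 and 0 reads in cultured libraries, a pooled ratio of 8474 (2899 to 41093). Tyrobp, the adaptor DAP12 that carries an ITAM like Fcer1g, averaged 223 ± 51.9 CPM in tumour libraries and 0.0460 ± 0.0469 CPM in cultured libraries (SD, n = 3 each), 12.29 higher on the log2 scale (SE 0.68, limma adjusted p = 4.45e-06). Trem1 and Trem2, receptors of myeloid cells that pair with Tyrobp, had log2 changes of 12.39 (SE 0.79) and 12.11 (SE 0.56).

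The kinases and adaptors behind the ITAM fell into genes with almost no reads in the cultured line and genes read in both groups. Of 24 listed genes, all tested, 18 were higher, 1 was lower and 5 did not pass the test, with a median change of 1.81. Among all genes 29.5% were higher and 18.8% lower. The 8 genes under 1 CPM in cultured libraries had a median change of 10.92, and the 16 genes at or above 1 CPM, of which 10 were higher and 1 lower, a median of 1.08. Syk, the kinase that binds the phosphorylated ITAM, had 11024, 4168 and 9752 reads in tumour libraries 1, 2 and 3, against 3, 0 and 1 reads in cultured libraries, a change of 12.52 (SE 0.76, limma adjusted p = 6.67e-06). Tumour library 2 was its low one, as for the receptors. Lcp2, the adaptor SLP-76, Vav1, a guanine nucleotide exchange factor, and the Src-family kinase Fgr changed by 11.45 (SE 0.73), 11.20 (SE 0.69) and 11.32 (SE 0.49). Other parts of the same chain were read in both groups. The Src-family kinase Lyn, chosen after its values were seen, had 188 ± 40.4 CPM in tumour libraries and 31.1 ± 6.90 CPM in cultured libraries, and Plcg2, the phospholipase downstream of Syk, chosen likewise, 275 ± 5.0 CPM in tumour libraries and 108 ± 12.7 CPM in cultured libraries (SD, n = 3 each). The gene that fell was Sos1, a Ras exchange factor, by 0.96 on the log2 scale (SE 0.19, limma adjusted p = 0.00387).

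On the inhibitory side, 12 phosphatases and adaptors were listed and tested. Of these 8 were higher, 2 lower and 2 did not pass, with a median change of 1.37. The shares over all genes were 29.5% higher and 18.8% lower. Inpp5d, the inositol phosphatase that the Fcgr2b motif recruits, had 7309, 4301 and 6064 reads in tumour libraries 1, 2 and 3, against 12, 37 and 33 reads in cultured libraries. Its groups did not overlap and its change was 7.93 (SE 0.48, limma adjusted p = 6.60e-06). Dok3 and Dok2, adaptors of inhibitory signalling in myeloid cells, changed by 6.96 (SE 0.46) and 6.44 (SE 0.41). Ptpn6, the tyrosine phosphatase SHP-1 that binds many ITIM receptors, averaged 136 ± 31.6 CPM in tumour libraries and 11.6 ± 2.31 CPM in cultured libraries (SD, n = 3 each), a change of 3.54 (SE 0.23, limma adjusted p = 8.55e-06). Its relative Ptpn11, which encodes SHP-2 and is used widely outside the immune system, fell to 201 ± 25.9 CPM in tumour libraries, against 450 ± 70.8 CPM in cultured libraries (SD, n = 3 each, change -1.16, SE 0.18, limma adjusted p = 0.00118). Ptpn22, a phosphatase of immune cells, also fell, to 10.9 ± 2.92 CPM in tumour libraries, against 94.8 ± 29.3 CPM in cultured libraries (SD, n = 3 each, change -3.10, SE 0.28, limma adjusted p = 6.22e-05).

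Fcgr2b is 1 of many receptors with an inhibitory motif. Another 15 such receptors were listed, all 15 were tested and all 15 were higher in tumour libraries, with a median change of 10.69, or 10.41 with the bound for genes of 0 cultured reads. All were under 1 CPM in cultured libraries, and their direction too was fixed by entry through tumour reads, except for Sirpa. Sirpa had 58 reads in cultured libraries together, close to the lowest total of the table. Over all genes 29.5% were called higher. Among the 1487 genes with a cultured mean no higher than that of the highest of the 5 Fc receptor genes, 0.139 CPM, 99.9% were. Sirpa, Siglece and Pecam1 lay above that level in cultured libraries, at 0.463, 0.161 and 0.144 CPM. Lair1, a collagen receptor, and Cd300a, a lipid receptor, had 0 reads in all cultured libraries and were at least 2829-fold and at least 1700-fold higher in tumour libraries, against a floor of 3 reads over the cultured group. Cd300lf, which binds lipids, had 10131, 2725 and 6068 reads in tumour libraries 1, 2 and 3 and 5 reads in cultured libraries, a pooled ratio of 4025 (1724 to 12397). Lilrb4a, a receptor with a near-identical neighbouring copy that makes its count uncertain, had 23768, 7612 and 19447 reads in tumour libraries 1, 2 and 3, against 6, 2 and 2 reads in cultured libraries. Tumour library 2 lay below the mean of libraries 1 and 3 for all 15, as it did for 48.8% of all genes.

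The machinery that Fc receptors set in motion, engulfment and the oxidative burst, had 20 listed genes. Of these 16 were higher, 1 was lower and 3 did not pass, with a median change of 2.16. Among all genes 29.5% were higher and 18.8% lower. Here too the median was 11.13 for the 9 genes under 1 CPM in cultured libraries and 0.72 for the 11 at or above it. Cybb, the catalytic subunit of the phagocyte oxidase, averaged 415 ± 96.9 CPM in tumour libraries and 0.0891 ± 0.0872 CPM in cultured libraries (SD, n = 3 each), a change of 12.35 (SE 0.61, limma adjusted p = 2.71e-06). Its cytosolic partner Ncf4 had a pooled ratio of 3006 (1288 to 9260). Dock2, an activator of Rac in blood cells, had 1 read in cultured libraries and a pooled ratio of 12546 (2251 to 495572), and Myo1f, a myosin of blood cells, had none and was at least 4354-fold higher. The gene that fell, Wasl, an actin nucleation factor of most cells, changed by -0.69 (SE 0.22, limma adjusted p = 0.0315), a call that was lost without any one of 5 of the 6 libraries (adjusted p = 0.0795 to 0.0930).

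Transcription factors listed for Fc receptor genes, whose binding was not measured here, made up the last list, with 17 of 18 genes tested. Of these 13 were higher, 1 was lower and 3 did not pass, at a median change of 2.21. The shares over all genes were 29.5% higher and 18.8% lower. Spi1, which encodes PU.1, had 4770, 3161 and 4025 reads in tumour libraries 1, 2 and 3, against 0, 1 and 3 reads in cultured libraries, a change of 11.56 (SE 0.72, limma adjusted p = 7.70e-06). Cebpa, a factor of myeloid differentiation, had a pooled ratio of 8979 (1611 to 354700) on 1 cultured read, and Tfec, a factor of macrophages, was at least 723-fold higher on none. Cebpe, a factor of late granulocytes, was low at 0.720 ± 0.290 CPM in tumour libraries and 0.00736 ± 0.0128 CPM in cultured libraries (SD, n = 3 each), and its change of 5.28 (SE 0.57, limma adjusted p = 0.00017) became 0.47 under quantile normalization (adjusted p = 0.436). Gabpa, a widely expressed ETS factor, differed by -0.38 on the log2 scale (SE 0.13, limma adjusted p = 0.0418), a call that was lost without any one of 5 of the 6 libraries (adjusted p = 0.0536 to 0.134).

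**Figure D5:**
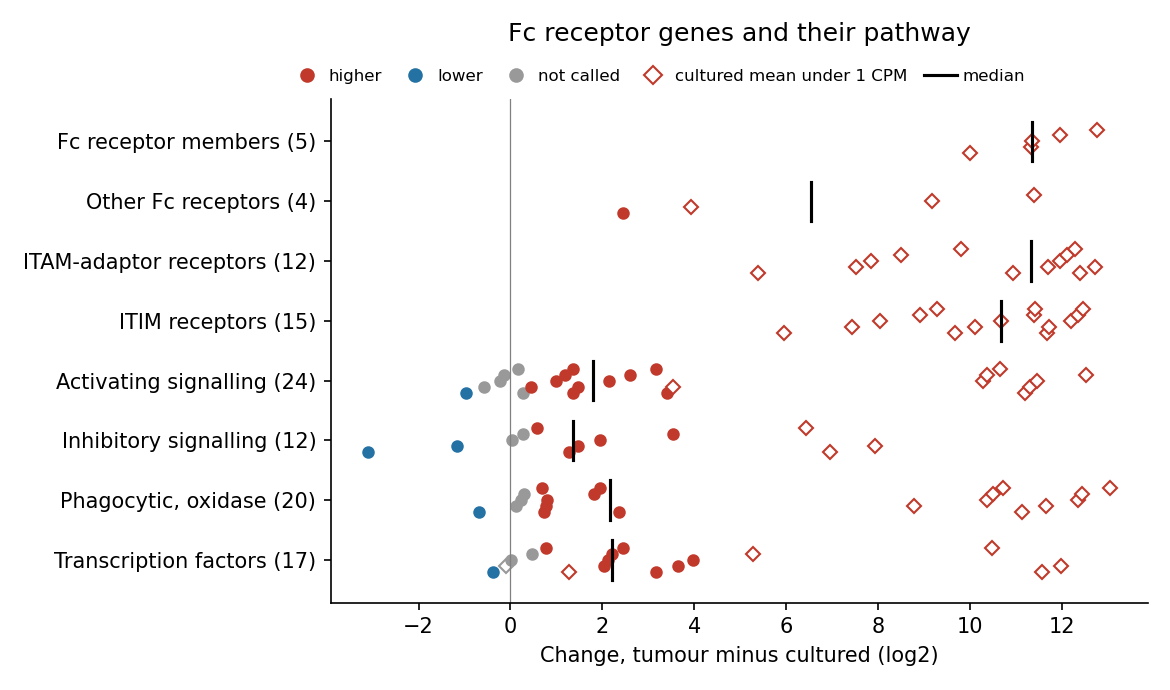
Log2 change, tumour minus cultured libraries, of each tested gene in the Fc receptor group and its pathway lists, with the number tested in brackets. Red genes were higher and blue genes lower by the limma test, grey genes did not pass, open diamonds had a cultured mean under 1 CPM and black bars are list medians. The 5 receptor genes lie between 9.998 and 12.76, while the signalling, phagocytic and transcription factor lists have medians between 1.37 and 2.21.

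Over all pathway lists 104 genes were tested, of which 86 were higher in tumour libraries and 5 were lower, the last being Sos1, Ptpn11, Ptpn22, Wasl and Gabpa. Over all tested genes 29.5% were higher and 18.8% lower. Many list genes, among them all 12 small-adaptor and all 15 ITIM receptor genes, were under 1 CPM in cultured libraries. For those genes 29.5% is not a like background. Of the 1487 genes with a cultured mean no higher than that of the highest receptor gene, 0.139 CPM, 99.9% were higher. Some of the list genes lay above that level, among them Clec4d at 0.645 CPM and Sirpa at 0.463 CPM. No share was computed for all genes under 1 CPM. At or above 1 CPM, 10 of 16 activating and 5 of 9 inhibitory signalling genes were higher. So were 7 of 11 phagocytic genes, 8 of 11 transcription factors and Trim21. The share over all genes at or above 1 CPM was not computed, so these counts have no like background here. Median centring, quantile normalization and plain library totals moved the median change of all genes by -0.22, -0.40 and -0.15, which is small beside the changes of the 5 receptor genes but of the size of the smaller changes named for Gabpa and Sdhc. The split over all genes was 4099 higher and 2612 lower with the deposited scaling, 3546 and 3833 with median centring, 2992 and 5513 with quantile normalization and 3628 and 3315 with plain totals.

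Genes whose pattern was most like each receptor were found by the root mean square difference of log2 CPM over the 6 libraries after centring each gene on its own mean. The closest to Fcgr1 were Ms4a6b at 0.30, Fam105a at 0.33 and Vav1 at 0.33. The closest to Fcgr3 were Msr1, a scavenger receptor of macrophages, at 0.20, Lox, lysyl oxidase, at 0.22 and Osm, the cytokine oncostatin M, at 0.22. Those of Fcgr4 were Pde3b at 0.13, Mical1 at 0.33 and Acvrl1 at 0.35, and those of Fcer1g were Colec12 at 0.22, Tlr13 at 0.29 and Slc7a2 at 0.51. Those of Fcgr2b were Pid1 at 0.082, Ripk3 at 0.10 and Adamts2 at 0.14, all with 0 reads in every cultured library, where the log2 value is set by the library total alone. Among the 5 receptor genes the closest pair was Fcgr2b and Fcgr3 at 0.41 and the farthest Fcgr4 and Fcer1g at 1.499. Since cultured reads were so few, these distances rest in part on counts of 0 to 12 reads.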

How the data were processed

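Per the labels' protocols, RNA came off RNeasy Mini columns and was made into TruSeq RNA libraries. HISAT, HTSeq, limma and the build mm10 are named in the submitters' processing notes, without versions or settings. The deposited table, from the authors, gives log2 values of 13912 genes in 6 libraries. These have the form of limma's voom values, log2 CPM with 0.5 reads added and totals scaled by trimmed mean of M-values. Solving for reads gave whole numbers within 0.01 in 100% of cells. Groups came from the labels and libraries are numbered 1 to 3 in accession order. Both groups entered 1 limma fit (limma 3.58.1, R 4.3.3) with a variance trend, run on the log2 values as deposited, and two-sided p-values were adjusted over all genes by Benjamini-Hochberg at 0.05. Changes are tumour minus cultured. The fit was tested on simulated data. Intervals of ratios are exact binomial at 95%. Count models were not run because the deposited unit is log2.

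The receptor genes and lists were chosen with earlier results of these data known. Named were all 5 receptor genes, up to 4 called genes of largest change per pathway list, Syk, Inpp5d, Ptpn6, Tyrobp, Spi1 and Fcgrt, the 3 genes most like each receptor (leaving out predicted and clone names), and the 2 highest genes per marker list. Others named are the list genes that fell, the chromosome 1 neighbours, and those said to be chosen after their values were seen. Annotation was GENCODE M21, and promoters came from RefSeq.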

Additional observations from a re-analysis of the deposited data

How the results depend on the processing

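No paired analysis was possible because the groups share no library numbers in the labels. The 14 settings were median centring, quantile normalization, plain totals, a filter on a group mean of at least 1, log2(CPM + 1), no variance trend, robust moderation, voom precision weights and leaving out each of the 6 libraries. All 5 receptor genes kept direction and call in all 70 comparisons, with changes of 6.49 to 13.61. Their direction had been fixed by their entry through tumour reads, so these comparisons bear on the sizes only. Of 850 comparisons over 61 named genes, 823 kept both, 17 lost the call, 7 gained it and 3 reversed. Those reversed were Cfap126 (-2.02) and Krt18 (-0.0069) under quantile normalization and Tomm40l (0.00051) without cultured library 3, where leaving out other libraries gave -0.40 at the lowest. The count of all genes lower in tumour libraries, 2612, was 5513 under quantile normalization and 1520 to 3301 with a library left out, with 1558 without tumour library 1 and 1520 without tumour library 3. The count of pathway genes lower, 5, was 8 under quantile normalization, 3 without the variance trend and 3 to 6 with a library left out, since Wasl and Gabpa were lost. The inhibitory to activating ratio was 0.483 with longest transcripts, 1.18 in CPM with no division by length (chosen after seeing the data) and 0.325 to 0.367 with a tumour library left out. The cause was not tested. Depth limits the cultured levels, which rest on 3 to 18 reads per receptor gene, so the size of each ratio is known at best within its interval. That interval covers counting error only and leaves out the scatter between libraries.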

Other observations

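Markers of cell types that the account of Fc receptors does not turn on were also measured. Lyve1, a hyaluronan receptor of lymphatic endothelium and of some macrophages, had 1027, 1290 and 3283 reads in tumour libraries 1, 2 and 3 and 0 reads in cultured libraries, at least 1985-fold higher in tumour libraries against a floor of 3 reads over the cultured group. Eng, an endothelial coreceptor, was read in both groups, at 96.7 ± 8.07 CPM in tumour libraries and 39.6 ± 10.9 CPM in cultured libraries (SD, n = 3 each). The collagen genes Col3a1 and Col1a1 averaged 2483 ± 691 and 2227 ± 79.4 CPM in tumour libraries, against 0.307 ± 0.0610 and 1.26 ± 0.543 CPM in cultured libraries (SD, n = 3 each). The keratin genes Krt18 and Krt8 of the carcinoma cells had 1055 ± 120.4 and 859.5 ± 121 CPM in tumour libraries, against 882 ± 139 and 528 ± 311 CPM in cultured libraries, and neither passed the limma test (adjusted p = 0.309 and 0.0970).

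The mast cell and basophil list was split among the tumour libraries, with 4 of its 9 measured genes lower in library 2 than the mean of libraries 1 and 3. Cpa3 had 87, 160 and 19 reads and Mcpt4 75, 160 and 20 reads in tumour libraries 1, 2 and 3, with 0 reads in cultured libraries, so library 2 was the highest for both, while Hdc had 12711, 1082 and 5989 reads in tumour libraries 1, 2 and 3 and was lowest there. Cpa3 and Mcpt4 were chosen after their values were seen. Cd4 had 121, 123 and 105 reads in tumour libraries 1, 2 and 3 and 0 reads in cultured libraries, and Lck, a kinase of T cells, 3.66 ± 0.660 CPM in tumour libraries and 6.93 ± 2.66 CPM in cultured libraries (SD, n = 3 each, change -0.85, SE 0.37, limma adjusted p = 0.0962).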
